A study of Mus musculus with 43 samples.

Results

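Glutathione, thioredoxin and selenium metabolism was represented in the screen by 54 genes of 2078, or 270 sgRNAs of 10640, with 5 sgRNAs for each gene. The members were taken by symbol, under a rule chosen with earlier results of these data known. They are all library genes named as glutathione transferases (*Gst*, *Mgst*), glutathione peroxidases (*Gpx*), peroxiredoxins (*Prdx*), thioredoxin system genes (*Txn*), gamma-glutamyl transferases (*Ggt*), superoxide dismutases (*Sod*) or selenophosphate synthetases (*Sephs*), together with *Gclc*, *Gclm*, *Gss*, *Gsr*, *Ggct*, *Oplah* and *Cat*. Of these, 23 belonged to the *Gst* and *Mgst* families and 31 did not. The screen used OT-I T cells, which are CD8+ and carry a receptor for an ovalbumin peptide. They were activated in culture and transduced with a lentiviral sgRNA library against metabolic genes. The donor cells carried Cas9 at the Rosa26 locus, where it is expressed constitutively, on a C57BL/6J background. CD90.1+ cells, which carry the reporter of the library vector, were transferred into Rosa26-Cas9 mice that bore KPC_OVA tumours, an ovalbumin-expressing mouse PDAC line implanted in the pancreas. Mice were given anti-PD-1 or control IgG from the day of transfer, and the transferred cells were recovered by sorting for CD90.1 after 7 days.

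The reference was T0, an aliquot of the same CD90.1+ cells from the day of ACT (day 0, 3 libraries). T0 cells had been transduced some days earlier, so that any loss before the transfer is already contained in the reference. The 14 groups sorted at day 7 came from primary tumour, lung, liver, peritoneal metastases, spleen, draining lymph nodes and nondraining lymph nodes, each under IgG or anti-PD-1. Of 43 samples, 41 carried values. Liver anti-PD-1 had 1 library, liver IgG and peritoneal metastases IgG had 2 each, and every other group had 3. All groups, T0 included, carry Cas9 and the whole library, so that a gene is compared with the 250 nontargeting sgRNAs of the same library and not with untransduced cells. The labels call the libraries biological replicates and do not say which animals each library holds, so p-values measure the spread between these libraries. This spread is pooled for each gene over all groups of a fit, whatever the scatter of a single group. Liver anti-PD-1, with 1 library, thus borrows it from the other groups.

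Glutathione is built in a pair of steps. Glutamate-cysteine ligase (*Gclc*, the catalytic subunit, and *Gclm*, the modifier subunit) joins glutamate to cysteine, and glutathione synthetase (*Gss*) adds glycine. Glutathione peroxidases spend glutathione on peroxides, glutathione reductase (*Gsr*) restores it with NADPH, and glutathione transferases attach it to electrophiles. The thioredoxin system runs in parallel, with NADPH-dependent thioredoxin reductases that keep thioredoxins reduced for peroxiredoxins and ribonucleotide reductase. Both systems rely on selenocysteine, an amino acid read from a UGA codon that otherwise ends translation, and *Sephs2* makes the selenophosphate from which selenocysteine is formed.

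An in-frame TGA, the DNA form of that codon, was found in the GENCODE mouse coding sequences of 8 of the 54 members, namely *Gpx1*, *Gpx2*, *Gpx3*, *Gpx4*, *Sephs2*, *Txnrd1*, *Txnrd2* and *Txnrd3*. The windows below, each written 5′ to 3′ on the coding strand, are from genes that fell and from relatives that did not pass the test. Some pairs differ at this codon and others agree. Other relatives, such as *Txnrd3* and *Gpx8*, are not shown. The capitals mark the selenocysteine codon, or the codon aligned to it by protein alignment in the relatives that lack it (aligned to *Sephs2* for *Sephs1* and to *Gpx4* for *Gpx7*).
Txnrd1: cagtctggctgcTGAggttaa
Txnrd2: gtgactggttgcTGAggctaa
Gpx4: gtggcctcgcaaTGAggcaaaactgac
Gpx1: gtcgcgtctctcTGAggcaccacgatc
Gpx7: gtagctagcgaaTGTggcttcacagac
Sephs2: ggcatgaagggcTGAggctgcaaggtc
Sephs1: gaactgaaaggcACAggctgcaaagtg
In both thioredoxin reductases the codon is the last but one before the stop, at codon 498 of *Txnrd1* and codon 526 of *Txnrd2*. In *Gpx4* it is codon 73 and in *Gpx1* codon 47. *Sephs1* reads ACA, threonine, where *Sephs2* has its selenocysteine at codon 63, and *Gpx7* reads TGT, cysteine.

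The value of a gene in a library is the mean of log2(signal + 1) over its 5 sgRNAs minus the same mean over the nontargeting sgRNAs of that library, and a change is the difference of a group's mean value from that of T0. A change of -1 therefore stands for about a 2-fold loss, and less than the true loss where sgRNAs were low. A loss can come from fewer divisions, fewer surviving cells or less entry into an organ, and these cannot be told apart from sgRNA shares. The read depth is unknown, since the deposited values are no longer counts. The summed signal per library was 2882462 to 4228882 in T0, 1788300 to 3590597 in the 26 libraries of primary tumour, lung, liver, peritoneal metastases and spleen, and 2690302 to 4130054 in the 12 lymph node libraries. An sgRNA was read as undetected where it held its lowest value among the libraries of the same replicate number and at least 1 other of these libraries held that value too. These lowest values belong to the replicate number: all were 0 in number 3, whereas in number 1 they differed between sgRNAs, with 10384 distinct values for 10384 sgRNAs, and in number 2 with 10257 for 10280. The deposited values thus carry the replicate number as a batch of the processing, and results are also given within numbers and with the number as a block. At most 0.0188% of sgRNAs were undetected in a T0 library. For the members' own sgRNAs this share was 0 to 42.2% in the organs and was 38.1% to 90.7% in lymph nodes. The library titled peritoneal metastases anti-PD-1 replicate 2 carries spleen as its tissue label and was used by its title.

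Across the 10 groups outside the lymph nodes, 6 of the 54 members (11.1%) were lower than T0 in at least 1 group and 0 were higher. Over the whole library, 442 of 2078 genes (21.3%) were lower in at least 1 of these groups and 54 were higher. The genes that fell were *Txnrd1* in 7 groups, *Sephs2* and *Gss* in 6 each, *Gclc* in 4, *Gpx4* in 3 and *Gsta2* in 1. A gene was called lower or higher where its limma p, adjusted by Benjamini-Hochberg across the 2078 genes, did not exceed 0.05. The share of members was below that of all genes in each of the 10 groups. In primary tumour, 4 of 54 members fell under IgG, where 14.3% of all genes did, and 4 under anti-PD-1 (14.4% of all genes). In lung, 4 fell under IgG (16.2% of all genes) and 4 under anti-PD-1 (17.2%). In liver, 1 fell under IgG (13.1%) and 0 in the single anti-PD-1 library (9.58%), where 3 members had an unadjusted p under 0.05. In peritoneal metastases, 2 fell under IgG (13.7%) and 2 under anti-PD-1 (15.3%), and in spleen 2 fell under IgG (13.6%) and 4 under anti-PD-1 (14%).

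No member passed the test for enrichment in the fits described above. By limma, 0 members were higher than T0 in each of the 14 groups, and the number with an increase at an unadjusted p under 0.05 was 0 to 3 per group. Other settings called members higher in the organs, 19 times with T0 and the compared group alone (16 of them in the single liver anti-PD-1 library) and once each with log2(value + 10), the median of all sgRNAs, the sgRNA median and the replicate block. Without lung IgG replicate 3, *Ggt7* and *Gstm4* were called higher in lung IgG. The share of all genes that were higher was 0% under IgG and 0.144% under anti-PD-1 in primary tumour, 1.68% and 0.962% in lung, and 0.192% and 0.289% in liver. In the same order it was 0.0481% and 0.144% in peritoneal metastases and 0.289% and 0.433% in spleen. The median of the mean change over the 10 groups was -0.05 for the members and -0.14 for all genes. The quartiles of the members were -0.38 and 0.13, and those of all genes -0.55 and 0.13. The 27 calls fell on 6 genes, and the other 48 members had 0. The calls depended on how sgRNAs were summarised. With the median of the 5 sgRNAs in place of the mean, *Txnrd1* was called in 2 groups, *Gss* in 2, *Sephs2* in 1, *Gclc* in 1 and *Gpx4* in 0. Without the lowest 10% of sgRNAs, *Gclc* was called in 2 groups, *Txnrd1* and *Gss* in 1 each, and *Sephs2* and *Gpx4* in 0. This filter ranked sgRNAs by their mean signal over the same libraries, so sgRNAs that fell were the more likely to be left out. It left out 16% of the sgRNAs of these 5 genes and 1.22% of those of the other members. Fewer calls under it are thus partly built in, and calls over all genes went from 2936 to 655.

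**Figure D1:**
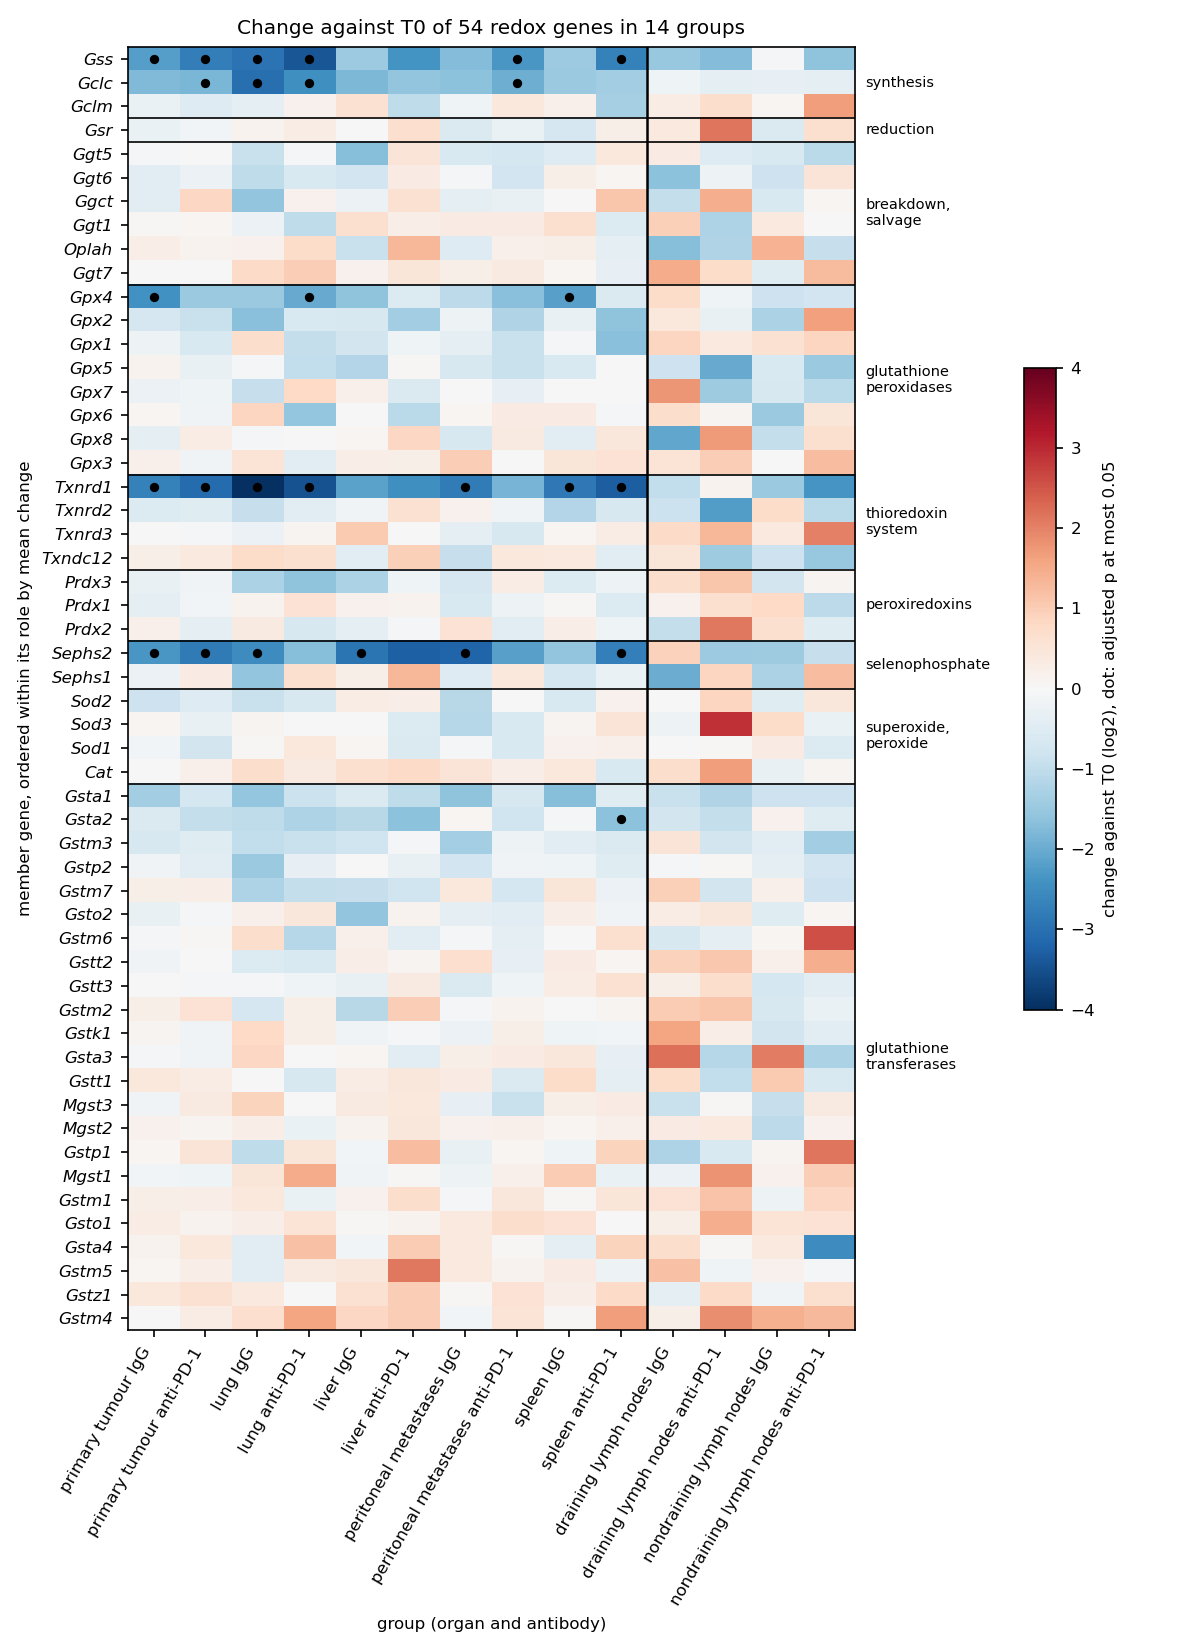
Change against T0 (log2, colour) of the 54 members (rows, grouped by role) in the 14 groups (columns), with a black dot where limma gave an adjusted p of at most 0.05 and the vertical line before the lymph node groups. The dots lie in the rows of *Gss*, *Gclc*, *Gpx4*, *Txnrd1* and *Sephs2*, apart from 1 for *Gsta2* in spleen anti-PD-1, and there is none in the lymph nodes.

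*Txnrd1*, the cytosolic thioredoxin reductase, had the largest mean loss of all members, -2.87 over the 10 groups (range of the groups -3.98 to -1.86). Its value in the T0 libraries was 0.14, 0.31 and 0.79. In primary tumour it was -1.90, -2.65 and -2.35 under IgG and -3.05, -2.19 and -2.78 under anti-PD-1. In lung it was -3.28, -3.49 and -3.93 under IgG and -2.67, -2.86 and -3.69 under anti-PD-1. All 26 organ libraries lay below every T0 library, as they did for 14% of all genes. Spleen gave -3.11, -0.42 and -3.83 under IgG and -3.49, -3.65 and -1.55 under anti-PD-1. The liver libraries were at -2.34 and -1.12 under IgG and at -2.03 under anti-PD-1. In peritoneal metastases the IgG libraries differed widely, at -3.83 and -0.97, and the anti-PD-1 libraries were at -2.71, -1.06 and -0.58. The fitted change passed the test in 7 groups, from -2.71 ± 0.74 (SE) in primary tumour IgG (limma adjusted p = 0.0069) to -3.98 ± 0.74 in lung IgG (limma adjusted p = 6.9e-05). It did not pass in liver IgG (-2.14), liver anti-PD-1 (-2.44) and peritoneal metastases anti-PD-1 (-1.86). In 5 of the 7 groups the call remained whichever library was left out. It was lost in peritoneal metastases IgG without replicate 2 (change -1.38) or without T0 replicate 3, and in spleen IgG without replicate 3 (change -2.18).

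The other genes of the thioredoxin system did not follow *Txnrd1*. *Txnrd2*, which encodes the mitochondrial reductase, had a mean change of -0.37 (-1.18 to 0.61), and *Txnrd3*, a reductase best known from testis, of 0.03 (-0.63 to 1.05). Neither passed the test in any of the 10 groups. In other settings, *Txnrd2* was called lower with values centred on the nontargeting median, and both were without centring. Set against its own T0 mean, *Txnrd1* was lower than *Txnrd2* in 26 of 26 organ libraries (median difference -2.63, against -0.19 to 0.26 in T0). It was also lower than *Txnrd3* in 26 of 26 (median -3.04). The pairs compared in this way, here and below, were chosen with the calls known, which largely fixes these counts. Because each gene is set against its T0 mean, the T0 differences average 0 by construction. *Txndc12*, a thioredoxin-domain protein of the endoplasmic reticulum, stood at 0.20. The thioredoxins *Txn1* and *Txn2* are not analysed here. Of the peroxiredoxins, which use thioredoxin to reduce peroxides, *Prdx1* (-0.07) and *Prdx2* (-0.06), both cytosolic, stayed near 0. The mitochondrial *Prdx3* had a mean change of -0.58, with groups from -1.60 to 0.31 and 0 calls. In other settings *Prdx3* was called lower, with the nontargeting median and with T0 and the compared group alone. Without centring all of *Prdx1*, *Prdx2* and *Prdx3* were.

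*Sephs2* had the next largest mean loss, -2.53 (range of the groups -3.26 to -1.57). The T0 libraries were at -0.03, 0.50 and 0.47. In primary tumour the values were -2.09, -2.31 and -1.68 under IgG and -2.28, -3.22 and -2.09 under anti-PD-1, which leaves a wide gap to T0. In liver they were -3.05 and -2.19 under IgG and -2.95 under anti-PD-1. Lung was more scattered, with -2.13, -4.28 and -0.19 under IgG and -2.64, -2.22 and 0.66 under anti-PD-1. Of the 26 organ libraries, 25 lay below every T0 library, and the exception was lung anti-PD-1 replicate 3. All or all but 1 of the organ libraries lay below T0 for 324 of all genes (15.6%), and for 5 members. Spleen IgG also spread, at -2.77, -0.11 and -0.89, whereas spleen anti-PD-1 was at -3.19, -2.06 and -2.06. Peritoneal metastases gave -3.27 and -2.48 under IgG and -1.56, -3.04 and -0.998 under anti-PD-1. The test passed in 6 groups, with changes from -2.34 ± 0.81 in primary tumour IgG (limma adjusted p = 0.045) to -3.19 ± 0.90 in peritoneal metastases IgG (limma adjusted p = 0.010). In all 6 groups at least 1 left-out library ended the call. In primary tumour IgG any of the 6 libraries did so, in primary tumour anti-PD-1 only replicate 2 (change -2.49 without it), and in peritoneal metastases IgG only replicate 2 (-2.79). In lung IgG the change ranged from -1.47 without replicate 2 to -3.52 without replicate 3, and the call ended without replicate 1, replicate 2, T0 replicate 2 or T0 replicate 3. In liver IgG it ended without either liver library, T0 replicate 2 or T0 replicate 3, and in spleen anti-PD-1 without replicate 1, T0 replicate 2 or T0 replicate 3.

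*Sephs1*, the relative that reads threonine at the selenocysteine position and lacks selenophosphate synthetase activity, had a mean change of -0.03. Its groups spread from -1.56 in lung IgG to 1.33 in liver anti-PD-1, and 0 passed the test. In other settings *Sephs1* was called lower, with the nontargeting median, with the median of all sgRNAs and without centring. The low lung IgG mean rested on replicate 2, at -4.55, beside -0.32 and -1.23 in the others. *Sephs2* was the lower of the pair in 24 of 26 organ libraries (median difference -2.68, against -0.46 to 0.24 in T0).

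Of the 3 genes of glutathione synthesis 2 fell, where 21.3% of all genes fell in at least 1 group. *Gss* had a mean change of -2.34 (-3.41 to -1.44). Its T0 values were 0.29, 0.04 and 0.47. The primary tumour libraries were at -2.72, -1.15 and -1.93 under IgG and at -2.80, -1.73 and -2.95 under anti-PD-1, and the lung libraries at -1.87, -3.15 and -3.07 and at -3.87, -1.95 and -3.60. All 26 organ libraries were below T0, as for 14% of all genes, the highest being peritoneal metastases anti-PD-1 replicate 2 at -0.57. The other libraries of that group were at -3.35 and -2.26, and those of peritoneal metastases IgG at -1.06 and -1.89. Liver gave -0.84 and -1.51 under IgG and -2.13 under anti-PD-1, and spleen gave -0.71, -1.11 and -1.75 under IgG and -2.64, -3.51 and -1.20 under anti-PD-1. *Gss* fell in 6 groups, from -2.20 ± 0.67 in primary tumour IgG (limma adjusted p = 0.017) to -3.41 ± 0.67 in lung anti-PD-1 (limma adjusted p = 0.00012). In 4 of the 6 the call remained whichever library was left out. It ended in primary tumour IgG without replicate 1 (-1.81), replicate 3, T0 replicate 1 or T0 replicate 3, and in peritoneal metastases anti-PD-1 without replicate 1 (-1.68).

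*Gclc* had a mean change of -1.90 (-3.03 to -1.38), and its T0 libraries, at 0.81, 1.01 and 1.02, were above the nontargeting mean. In lung the values were -1.81, -2.86 and -1.56 under IgG and -0.52, -2.92 and -1.08 under anti-PD-1. In primary tumour they were -1.09, -0.28 and -1.11 under IgG and -0.83, -1.05 and -0.77 under anti-PD-1. Again all 26 organ libraries lay below T0, as for 14% of all genes, although the highest, spleen IgG replicate 3, was at 0.21. The remaining spleen libraries were at -1.93 and 0.10 under IgG and at -0.53, -0.65 and -0.12 under anti-PD-1. Liver was at -0.54, -1.18 and -0.63, the last under anti-PD-1, and peritoneal metastases at 0.05 and -1.47 under IgG and at -2.03, -0.89 and -0.13 under anti-PD-1. The test passed in 4 groups, lung IgG (-3.03 ± 0.63, limma adjusted p = 0.00034), lung anti-PD-1 (-2.45 ± 0.63, limma adjusted p = 0.0033), peritoneal metastases anti-PD-1 (-1.97 ± 0.63, limma adjusted p = 0.026) and primary tumour anti-PD-1 (-1.83 ± 0.63, limma adjusted p = 0.045). In lung IgG the call remained without any 1 library, and in lung anti-PD-1 it ended without replicate 2 (-1.75). In primary tumour anti-PD-1 it ended without any of the 6 libraries. In peritoneal metastases anti-PD-1 it ended without replicate 1, without replicate 2, whose tissue label reads spleen (-2.03, limma adjusted p = 0.056), or without any T0 library. *Gss* in that group remained without replicate 2 (-3.07, limma adjusted p = 0.0012).

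*Gclm* did not fall with its catalytic partner in the fits described above. It was called lower when values were centred on the nontargeting median, and also without centring. Its mean change was -0.22 (-1.32 to 0.61), and 14 of 26 organ libraries were below T0 while 11 were above. *Gclc* was lower than *Gclm*, each against its T0 mean, in 23 of 26 organ libraries (median difference -1.73, against -0.07 to 0.10 in T0). *Gsr* stood at -0.05 (-0.67 to 0.69), with 12 organ libraries below T0 and 12 above. The enzymes that break glutathione down or recover its parts showed 0 calls among 6 genes. Of all genes, 21.3% were lower in at least 1 group, so 0 of 6 does not set these enzymes apart. Among the 6 are *Ggt1* (0.05), the gamma-glutamyl transferase that opens extracellular glutathione, *Ggct* (-0.02), the gamma-glutamylcyclotransferase, and *Oplah* (0.13), the 5-oxoprolinase. The mean changes of all 6 ran from -0.36 to 0.27. In other settings *Ggct*, *Ggt5* and *Ggt6* were called lower with the nontargeting median, and *Ggct* with the median of all sgRNAs. *Ggt5* and *Oplah* were with T0 and the compared group alone, and all but *Ggt7* without centring.

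**Figure D2:**
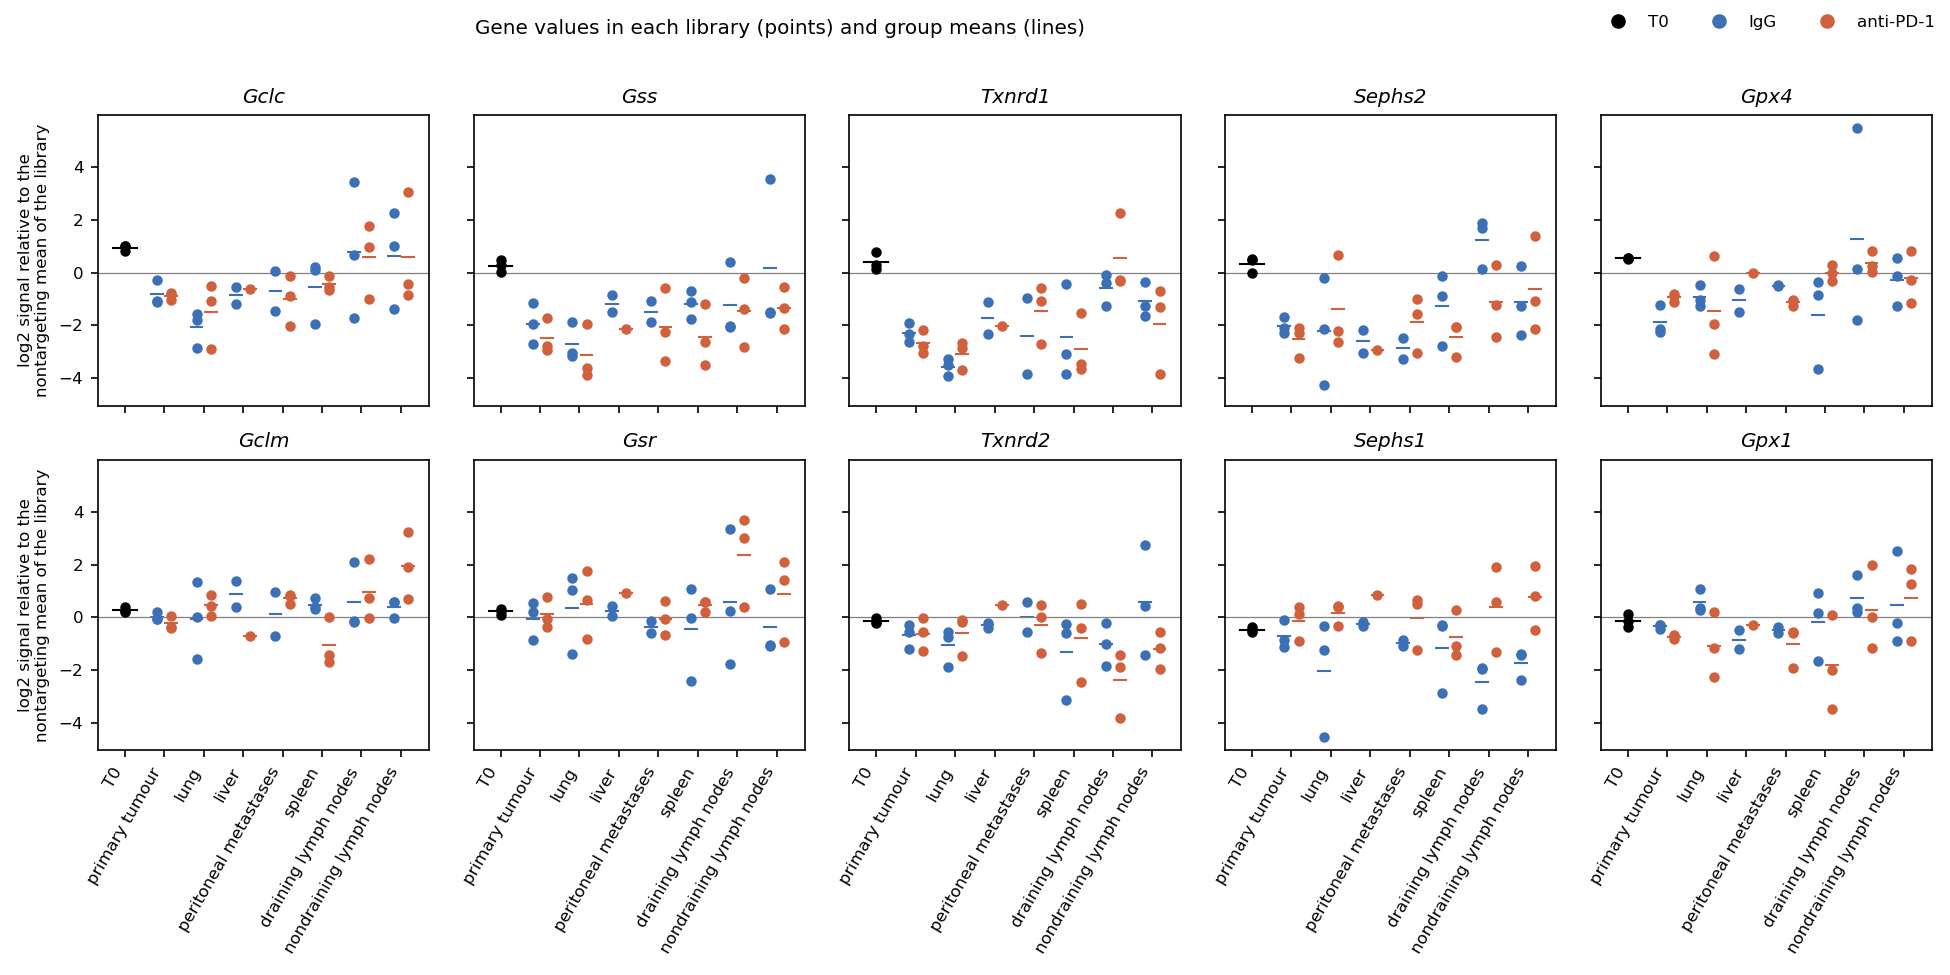
Value of 10 genes in every library (points; y axis, log2 signal relative to the nontargeting mean of the library) in T0 and the 7 organs under IgG (blue) and anti-PD-1 (orange), with short lines at group means. In the upper row (*Gclc*, *Gss*, *Txnrd1*, *Sephs2*, *Gpx4*) the organ libraries lie below T0 outside the lymph nodes except for 1 library each of *Sephs2* and *Gpx4*, and in the lower row (*Gclm*, *Gsr*, *Txnrd2*, *Sephs1*, *Gpx1*) they lie on both sides. All or all but 1 of the 26 organ libraries lay below T0 for 15.6% of all genes.

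Of the 8 glutathione peroxidases, *Gpx4* alone passed the test (12.5%, beside 21.3% of all genes lower in at least 1 group). It encodes the selenoenzyme that reduces lipid hydroperoxides in membranes and is known as the brake on ferroptosis. Its mean change was -1.50 (-2.42 to -0.56), and its T0 values were close together at 0.55, 0.54 and 0.53. In primary tumour IgG the libraries were at -2.15, -2.25 and -1.24, in primary tumour anti-PD-1 at -1.11, -0.90 and -0.82. Lung gave -1.27, -0.48 and -1.06 under IgG and 0.64, -3.09 and -1.94 under anti-PD-1, so that lung anti-PD-1 replicate 1 was the 1 organ library of 26 that was not below T0. For 15.6% of all genes, all or all but 1 of these libraries lay below T0. In spleen IgG the values were -3.67, -0.34 and -0.85, while spleen anti-PD-1 stayed at -0.03, 0.29 and -0.32. Liver was at -1.48 and -0.63 under IgG and -0.01 under anti-PD-1. Peritoneal metastases lay at -0.52 and -0.48 under IgG and at -1.02, -1.09 and -1.26 under anti-PD-1. The fitted change was -2.42 ± 0.70 in primary tumour IgG (limma adjusted p = 0.011), -2.17 ± 0.70 in spleen IgG (limma adjusted p = 0.029) and -2.01 ± 0.70 in lung anti-PD-1 (limma adjusted p = 0.040). All of these calls depended on single libraries. In primary tumour IgG the call ended without replicate 1 or replicate 2, in spleen IgG without replicate 1 (-1.14) or any T0 library, and in lung anti-PD-1 without replicate 2 (-1.19), replicate 3 or any T0 library.

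Among the other 7 peroxidases, with a median mean change of -0.13, 0 were called, where 21.3% of all genes were lower in at least 1 group. Other settings called some of these peroxidases lower, as the nontargeting median did for *Gpx2*, *Gpx6* and *Gpx7*. *Gpx1*, the abundant cytosolic selenoenzyme, had a mean change of -0.49 (-1.67 to 0.70), and *Gpx3*, the secreted one, of 0.27. *Gpx2*, a selenoenzyme of the gut epithelium, was at -0.92 with all 10 groups below 0 but 0 calls. *Gpx4* was lower than *Gpx1* in 21 of 26 organ libraries (median difference -1.12), lower than *Gpx7* in 23 (median -1.43) and lower than *Gpx8* in 24 (median -1.38), the latter 2 being cysteine-containing relatives of the endoplasmic reticulum.

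By the presence of a selenocysteine codon, 3 of the 8 members with one (*Gpx4*, *Sephs2*, *Txnrd1*) were lower in at least 1 group, and 3 of the 46 without (*Gclc*, *Gss*, *Gsta2*). Of all genes, 21.3% were. In 2 or more groups it was 3 of the 8 and 2 of the 46, and 343 of all 2078 genes (16.5%). The 5 others with the codon, the 3 further *Gpx* genes and *Txnrd2* and *Txnrd3*, were not lower in any group. The median of the mean change was -0.71 over the 8 and -0.03 over the 46.

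The enzymes that remove superoxide and hydrogen peroxide without glutathione or thioredoxin gave 0 calls among 4 genes. Of all genes, 21.3% were lower in at least 1 group, so 0 of 4 does not set these genes apart. *Sod2*, the mitochondrial manganese enzyme, had a mean change of -0.38 (-1.10 to 0.30). *Sod1*, the cytosolic copper and zinc enzyme, was at -0.12 and *Sod3*, the extracellular form, at -0.18. *Cat*, catalase, was at 0.33 (-0.60 to 0.76). The organ libraries of *Sod1* were split evenly around T0, with 12 below and 12 above. In other settings *Sod2* was called lower with the nontargeting median. With T0 and the compared group alone, and without centring, *Sod1*, *Sod2* and *Sod3* were.

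The *Gst* and *Mgst* genes, 23 in all, gave 1 call in 230 combinations of gene and group (0.435%). The 31 other members gave 26 in 310 (8.39%), and all genes gave 2936 in 20780 (14.1%). The median of the mean change was 0.08 in the transferases, with single genes from -1.05 to 0.65. *Gsta2*, an alpha-class transferase best known from liver, was the 1 that fell, in spleen anti-PD-1 (-1.63 ± 0.57, limma adjusted p = 0.049). Its values there were 0.05, -1.81 and -1.78 beside 0.31, 0.49 and 0.55 in T0. Replicate 1 of the group thus lay near T0, and the call ended in 5 of 6 cases when a library was left out, that is without replicate 2, replicate 3 or any T0 library. It also ended with the replicate number as a block (limma adjusted p = 0.059), which left 0 transferases lower. The 3 lowest mean changes of the family were those of *Gsta1* (-1.05), *Gsta2* (-0.90) and *Gstm3* (-0.65). The 3 highest were those of *Gstm4* (0.65), *Gstz1* (0.47) and *Gstm5* (0.35), with 0 calls in any group. Without centring, which shifts all genes alike, these 3 values were below 0 (-0.35, -0.53 and -0.65), and with the nontargeting median that of *Gstm5* was -0.06.

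Family members can share target sequence. All 20-base sites followed by NGG, the motif that Cas9 from *Streptococcus pyogenes* recognises, were taken from both strands of each member's coding sequence and looked up in the coding sequences of all other genes. More than 10% of sites recurred exactly in another gene for 10 of the 23 transferases and for 0 of the 31 other members, where the highest share was 9.2% (*Gpx6*). The shares were 96.9% for *Gsta1*, 93.7% for *Gsta2*, 78.7% for *Gstp1*, 78% for *Gstp2* and 73.7% for *Gstt3*. Of the sites in *Gsta2*, 78.9% were also in *Gsta1*. The guide sequences of this library are not used here, so which of these sites its sgRNAs cut, and the part of shared sites in the values, was not tested.

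At the level of single sgRNAs, the 5 genes called in 2 or more groups had most of their sgRNAs low. Of their 25 sgRNAs, 22 (88%) had a mean change below -1 over the 10 groups, a share that the choice of the genes by the mean of these sgRNAs largely fixes. Among 1690 sgRNAs of the other genes of the library called in 2 or more groups it was 91.2%, among 250 nontargeting sgRNAs 10%. All 5 sgRNAs of *Gss* (-3.31 to -1.74) and of *Sephs2* (-2.97 to -1.70) were below -1. For *Txnrd1* 4 of 5 were, with sgRNA 1 at -0.76 and the others from -3.66 to -2.87. *Gpx4* had 4 of 5, from -2.03 to -1.83, and sgRNA 4 stood apart at 0.06. *Gclc* was less even: sgRNA 3 was at -4.29, 3 others were between -2.34 and -1.27, and sgRNA 5 was at -0.22. In the alpha-class pair only some sgRNAs were low, 2 of 5 in *Gsta1* (-2.58 and -2.30) and 3 of 5 in *Gsta2* (-1.83, -1.38 and -1.05). Of the organ values of the 25 sgRNAs, 16.9% were undetected, beside 40.1% for the other called genes and 7.09% for nontargeting sgRNAs.

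**Figure D3:**
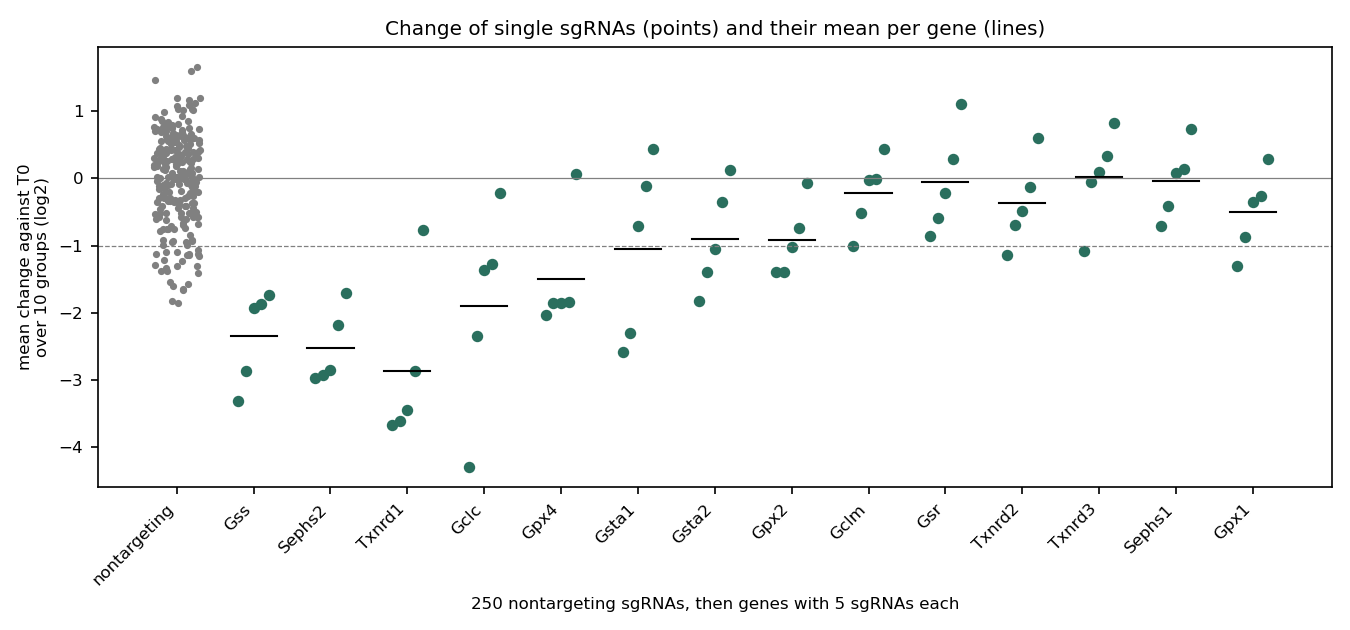
Mean change against T0 over the 10 groups outside the lymph nodes (log2) of each of 250 nontargeting sgRNAs (grey) and of the 5 sgRNAs of 14 members (green), with lines at gene means and a dashed line at -1. For *Gss* and *Sephs2* all 5 points lie under the dashed line, for *Txnrd1*, *Gclc* and *Gpx4* 4 of 5 do, and for *Gsr*, *Txnrd3*, *Sephs1* and *Gpx1* most lie above it.

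The 5 genes were also compared within each replicate number. Against the T0 library of the same number, the mean change of *Txnrd1* was -3.02, -2.81 and -3.07 within numbers 1, 2 and 3. That of *Sephs2* was -2.35, -3.12 and -1.95, that of *Gss* -2.86, -1.71 and -2.70, that of *Gclc* -2.06, -2.01 and -1.81, and that of *Gpx4* -1.78, -1.64 and -1.39.

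Further genes listed for neighbouring pathways, chosen with earlier results of these data known, were counted in the same way. Of 46 further genes listed for cystine and cysteine supply, glutathione hydrolysis, glutaredoxins, selenoprotein synthesis, NADPH supply, methylglyoxal removal and other redox functions, 32 were in the library. Of these, 10 (31.2%) were lower in at least 1 of the 10 groups, where 21.3% of all genes were, and 0 were higher. In the supply of NADPH, *G6pdx* (-3.82) and *Pgd* (-4.69), the dehydrogenases of the oxidative pentose phosphate pathway, and *Mthfd1* (-5.11) of folate metabolism were lower in 10 of 10 groups. *Pgls* (-2.21), the lactonase between the dehydrogenases, was lower in 4 and *Nadk* (-1.81), the cytosolic NAD kinase, in 3. *Sepsecs* (-2.88), which turns phosphoseryl-tRNA into selenocysteyl-tRNA with the product of *Sephs2*, was lower in 8 groups. *Pstk*, the kinase of the step before it, had -1.07 with 0 calls, and *Scly*, the selenocysteine lyase, -0.29 with 0 calls. For cystine, *Slc3a2* (-3.20), the heavy chain of several amino acid transporters, was lower in 9 groups. *Slc7a11* (-0.50), the light chain that imports cystine, was lower in 1. *Mat2a* (-6.12) and *Ahcy* (-5.73) of the methionine cycle were lower in all 10, whereas *Cth* (0.23) and *Cbs* (0.30), the enzymes that make cysteine from homocysteine, had 0 calls. The glutaredoxins *Glrx* (0.17) and *Glrx2* (0.44) had 0 calls as well. As a second large family of detoxifying enzymes, the 63 *Cyp1* to *Cyp4* genes gave 7 calls in 630 combinations (1.11%), with a median mean change of -0.08.

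**Figure D4:**
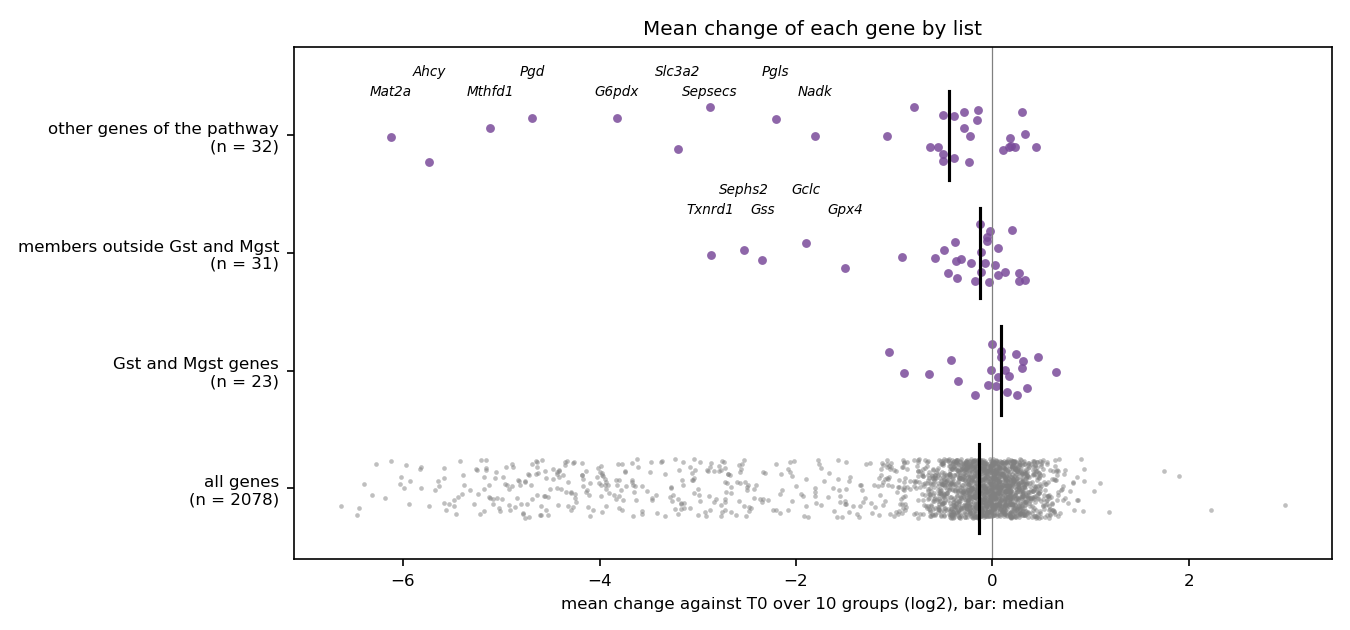
Mean change against T0 over the 10 groups outside the lymph nodes (log2, x axis) of all 2078 genes, the 23 *Gst* and *Mgst* genes, the 31 other members and 32 further genes of the pathways (points, spread vertically for legibility), with a bar at each median and names for genes below -1.4. The transferases lie between -1.05 and 0.65, and 5 of the other members are named at the left.

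Lymph node libraries differed by replicate number, with 77.6% to 91.6% of all sgRNAs undetected in numbers 1 and 2 and 45.4% to 58.6% in number 3. In the lymph nodes 0 members passed the test in either direction in any of the 4 groups, and neither did any other gene (0% of 2078). Unadjusted p under 0.05 with limma was reached by 1 member lower in draining lymph nodes IgG, by 1 lower and 2 higher under anti-PD-1, by 0 in nondraining lymph nodes IgG, and by 2 lower and 2 higher under anti-PD-1. The 12 libraries had a wide spread, as in *Gpx4*, whose values ran from -1.80 to 5.47 with a median of 0.08. *Gss* had a median of -1.45 (-2.81 to 3.55) and *Txnrd1* of -0.53 (-3.83 to 2.25). The fitted changes of *Txnrd1* were -0.99 in draining lymph nodes IgG, 0.13 in draining lymph nodes anti-PD-1, -1.49 in nondraining lymph nodes IgG and -2.35 in nondraining lymph nodes anti-PD-1, each ± 0.99 (SE). The standard errors of the 5 genes that fell elsewhere were 0.99 to 1.22 here, so that many losses of the size measured in the other organs would not pass the test with these libraries.

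Anti-PD-1 against IgG gave 1 member called in 1 organ. In lung, *Gpx6*, a peroxidase of the olfactory epithelium, was lower under anti-PD-1 (-2.42 ± 0.58, limma adjusted p = 0.023), while 2.36% of all genes were lower and 1.2% higher in that comparison. The call ended with log2(value + 10) (limma adjusted p = 0.075), with the nontargeting median (limma adjusted p = 0.060), with the sgRNA median (limma adjusted p = 0.21) and without lung anti-PD-1 replicate 3 (limma adjusted p = 0.078). In primary tumour, liver, peritoneal metastases, spleen and both kinds of lymph nodes 0 members passed, and 0% of all genes did. At an unadjusted p under 0.05 with limma, these comparisons held 0 to 5 members lower and 0 to 5 higher. As the mean of the 5 organs outside the lymph nodes, 0 members passed (0.481% of all genes were lower and 0.866% higher), with 4 lower and 7 higher at an unadjusted p under 0.05. In that mean, the 5 genes that fell against T0 differed between treatments by 0.07 ± 0.38 for *Txnrd1*, -0.04 ± 0.41 for *Sephs2*, 0.11 ± 0.32 for *Gclc*, 0.49 ± 0.36 for *Gpx4* and -0.76 ± 0.34 for *Gss* (SE, limma adjusted p from 0.27 to 0.99). A p above the threshold does not show that a gene acted alike under both treatments.

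Between organs, 0 members differed from primary tumour in lung, liver, peritoneal metastases or spleen, with both treatments averaged. Of all genes, 0% passed in lung, liver and peritoneal metastases, and 0.0481% were lower and 0.241% higher in spleen. In lung, 3 members were lower and 3 higher at an unadjusted p under 0.05, and in the other 3 organs 0 were. Relative to primary tumour, the change in lung was -0.83 ± 0.52 for *Txnrd1*, -0.94 ± 0.45 for *Gclc* and -0.71 ± 0.47 for *Gss*, and 0.48 ± 0.57 for *Sephs2* and 0.21 ± 0.49 for *Gpx4* (SE, limma adjusted p from 0.42 to 0.91). That a gene was called in one organ and not in another therefore does not show a difference between them.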

How the data were processed

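The values are signal per sgRNA in 41 libraries. Per the study's methods, the authors counted reads with MAGeCK, normalized the counts to the nontargeting sgRNAs, removed differences between organs with ComBat and deposited the resulting signal, and they left out 2 samples. Batch terms, genome build and read depth are not given in the sources used here, and values adjusted in this way are no longer counts, so no count test and no counting interval was used. Adjustment between organs can also shrink or add differences from T0. Tied lowest values (relative tolerance 1e-09) were shared within a replicate number, although the methods name organs as the source of batch effects. Whether organ, number or both served as batches is not given, and the number was therefore also treated as a batch.

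For each library, the value of a gene was the mean log2(signal + 1) of its 5 sgRNAs less that of the 250 nontargeting sgRNAs. Linear models were fitted with limma 3.58.1 in R 4.3.3 over all 2078 genes, with T0 and the 10 groups outside the lymph nodes in one fit and T0 and the 4 lymph node groups in another, and p-values were adjusted by Benjamini-Hochberg over all genes. The scripts were tested on simulated data. The members, lists, tests and settings were chosen with earlier results of these data known. Named were all members called outside the lymph nodes, a core of 27 single-copy genes (22 measured here), and the 3 *Gst* or *Mgst* genes with the highest and the 3 with the lowest mean change. *Ggt7*, *Gpx2*, *Gpx6*, *Gpx7*, *Gpx8*, *Gstp1*, *Gstp2*, *Gstt3* and *Txndc12* fall outside this rule and were chosen after their values were seen. Coding sequences came from the GENCODE annotation, where all 54 symbols matched. They were aligned with Biopython 1.88. Alternatives were another pseudocount, other centrings, the sgRNA median, a filter on low sgRNAs, a replicate block, other sets of libraries in the fit, and leaving out each library.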

Additional observations from a re-analysis of the deposited data

Results flagged for a closer look

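*Gpx6* was called lower under anti-PD-1 than under IgG in lung, as 1 of 54 members (1.85%). In that comparison 2.36% of all genes were lower and 1.2% higher. The mean change of *Gpx6* against T0 was 0.87 under IgG and -1.55 under anti-PD-1. The difference was -2.42 ± 0.58 (SE, limma adjusted p = 0.023, 3 libraries against 3). Relative to the T0 mean, the IgG libraries lay between -0.11 and 1.52 and the anti-PD-1 libraries between -2.95 and -0.41. That these ranges do not overlap follows largely from the call, and how many genes of the library separate likewise was not counted. The call ended with log2(value + 10) (-1.43, adjusted p = 0.075), with the nontargeting median (-2.05, adjusted p = 0.060), with the median of the sgRNAs (-2.20, adjusted p = 0.21) and, in an alternative added after seeing the data, without lung anti-PD-1 replicate 3 (-1.72, adjusted p = 0.078). Of its 5 sgRNAs, sgRNA 4 was undetected in all 3 anti-PD-1 libraries and at 2.38, 4.26 and 0.52 above its T0 mean under IgG. The sgRNA 3 was mixed, at 2.62, -6.21 and -5.42 under anti-PD-1 and at -4.49, 1.85 and -1.46 under IgG. The sgRNA 1 overlapped, from -0.90 to 2.20 and from 0.52 to 2.17. So did sgRNA 2, at -0.89, 1.54 and 0.92 under anti-PD-1 and at 3.50, 1.42 and 0.39 under IgG. The sgRNA 5 overlapped too, at 0.14, 1.08 and -4.04 under anti-PD-1 and at 2.46, -0.92 and -0.50 under IgG. Only sgRNA 4 thus separated the treatments in all libraries. In primary tumour, peritoneal metastases, spleen and both kinds of lymph nodes the treatments overlapped, and the single anti-PD-1 library of liver (-1.09) lay below both IgG libraries. The part of undetected sgRNAs in the difference was not tested.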

How the results depend on the processing

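Outside the lymph nodes, the 27 losses of a gene in a group stayed below 0 under all alternatives run, and 10 of 27 passed the test whichever library was left out. Calls of lower members over the 10 groups numbered 27 (all genes 2936). With log2(value + 10) they numbered 38 (3161), with the nontargeting median 53 (3653), with the median of all sgRNAs 32 (3001), without centring 109 (5590), with the median of the sgRNAs 7 (1592), without the lowest 10% of sgRNAs 4 (655), with all libraries in 1 fit 15 (2584) and with T0 and the compared group alone 59 (3922). Besides the genes that fell, the nontargeting median called 19 further members lower in these groups, and the median of all sgRNAs 9. The filter left out 16% of the sgRNAs of *Gclc*, *Gss*, *Gpx4*, *Sephs2* and *Txnrd1*, 1.22% of those of the other members and 10% of all. It ranked sgRNAs by mean signal over the libraries tested, so that it selects against sgRNAs that fell. The median change of all genes was -0.26 to 0.00 in the organs with the nontargeting mean, -1.42 to -0.20 with the nontargeting median, -0.996 to 0.12 with the median of all sgRNAs and -2.17 to -0.52 without centring. In lymph nodes it was -0.30 to -0.18, 1.37 to 2.08, 1.55 to 1.99 and -5.97 to -5.23. Where no cause is named, it was not tested.

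The following counts of members moved. With log2(value + 10), 4 were lower in liver IgG, 1 in liver anti-PD-1 and 5 in peritoneal metastases anti-PD-1, 1 was higher in spleen anti-PD-1, and 0 differed between treatments in lung. With the nontargeting median, 23 were lower in lung IgG, 10 in lung anti-PD-1 and 4 in peritoneal metastases anti-PD-1, 0 differed between treatments in lung and 17 between lung and primary tumour. With the median of all sgRNAs, 2 were lower in primary tumour IgG, 13 in lung IgG, 0 in liver IgG and 1 in peritoneal metastases anti-PD-1, and 1 was higher in spleen anti-PD-1. Without centring, 40 were lower in lung IgG, 22 in lung anti-PD-1, 10 in liver IgG, 5 in liver anti-PD-1, 4 in peritoneal metastases IgG, 5 in peritoneal metastases anti-PD-1, 6 in spleen IgG and 8 in spleen anti-PD-1. In lymph nodes, 53 and 50 were then lower in draining nodes under IgG and anti-PD-1, and 54 in nondraining nodes under each. With the median of the sgRNAs, 0 were lower in both primary tumour groups, liver IgG, both peritoneal metastases groups and both spleen groups, 2 were lower and 1 higher in lung anti-PD-1, 0 differed between treatments in lung and 4 between lung and primary tumour. Without the lowest 10% of sgRNAs, 0 were lower in both primary tumour groups, liver IgG, both peritoneal metastases groups and both spleen groups, and 2 in each lung group. With all libraries in 1 fit, 1 was lower in primary tumour IgG, 2 in lung anti-PD-1, 0 in liver IgG, 0 in peritoneal metastases anti-PD-1 and 1 in spleen IgG. With T0 and the compared group alone, 11 were lower and 1 higher in liver IgG, 14 lower and 16 higher in liver anti-PD-1, 6 lower in peritoneal metastases IgG and 4 in peritoneal metastases anti-PD-1, and 1 was higher in lung anti-PD-1 and 1 in spleen anti-PD-1.

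When each library was left out in turn, the members lower than T0 numbered 1 to 3 in primary tumour IgG, 2 to 3 in primary tumour anti-PD-1, 3 to 7 in lung IgG, 2 to 6 in lung anti-PD-1, 0 to 1 in liver IgG, 0 to 2 in peritoneal metastases IgG, 0 to 3 in peritoneal metastases anti-PD-1, 1 to 2 in spleen IgG and 2 to 5 in spleen anti-PD-1. Higher members numbered 0 to 2 in lung IgG, 0 to 1 in lung anti-PD-1 and 0 to 1 in spleen anti-PD-1. Whether replicate numbers pair the libraries was not settled. Residuals of libraries with the same number correlated at 0.013 on average (-0.36 to 0.27), with 39 of 118 pairs over 0.1, against 18 of 234 pairs with different numbers, and 16 of 28 libraries correlated best with their own number. Not every pair with the same number was over 0.1, but the lowest values were shared within a number. With the replicate block, calls of lower members numbered 29 (all genes 2988). *Sephs2* was gained in peritoneal metastases anti-PD-1 and in liver anti-PD-1, where 1 member was then lower, *Gpx6* was gained in lung anti-PD-1, *Gsta2* was lost in spleen anti-PD-1, and 1 member, *Gstm4*, was higher in spleen anti-PD-1. The other 26 calls remained.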
